A study of Homo sapiens with 6 samples.

Results

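Intermediate filament proteins were examined at the mRNA level through 9 genes: VIM (vimentin), NES (nestin), the keratins KRT7, KRT8, KRT18 and KRT19, and the lamins LMNA, LMNB1 and LMNB2. They were taken by gene symbol from the deposited count table and make up 9 of its 21619 entries. The study sequenced polyA RNA of HT1080 cells, an established human fibrosarcoma line of connective tissue origin. One group of 3 libraries is labelled wild type (WT) and the other, also 3 libraries, comes from cells that stably overexpress PGK1, the glycolytic enzyme phosphoglycerate kinase 1 (PGK1_OE). No drug or other agent is named for either group, all 6 libraries carry the same batch label, and the labels do not tell whether WT cells received a control vector or whether the overexpressing cells are a single clone. Nor do they say that replicates were separate cultures, so each p-value measures variation among these libraries only, and that variation may be technical.

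Intermediate filaments are rope-like polymers built from coiled-coil dimers, and which genes a cell uses marks its lineage. Vimentin forms homopolymers in mesenchymal cells, nestin joins vimentin filaments in progenitor cells, and keratins are obligate pairs of a type II chain (KRT7, KRT8) with a type I chain (KRT18, KRT19), typical of simple epithelia. Lamins line the inner nuclear membrane: LMNA gives lamins A and C by alternative splicing, while LMNB1 and LMNB2 encode the B-type lamins, which keep a farnesyl anchor at their C terminus.

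That anchor is attached at the C-terminal CaaX box, and the coding ends are shown because the lamins and the enzymes that modify this end are described below. The last 30 bases of the coding sequences in GENCODE 29, stop codon included, have the last 4 sense codons in capitals. In all 3 sequences the capitals open with a cysteine codon. The gene-level counts do not separate the splice forms of LMNA.
LMNA, prelamin A, 664 codons: cagagcccccagaacTGCAGCATCATGtaa
LMNB1, lamin B1, 586 codons: gcatccaatagaagcTGTGCAATTATGtaa
LMNB2, lamin B2, 620 codons: accacctcaagaggcTGCTACGTGATGtga

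RefSeq promoter windows (GRCh38.p14, 250 bases before to 50 after a start site) were found for 6 of the 9 genes, in 9 windows: 3 for LMNA, 2 for LMNB1 and 1 each for LMNB2, VIM, NES and KRT8. Both strands were searched for the E2F motif TTTCCCGC and its variants TTTCGCGC, TTTGCCGC and TTTGGCGC, for the AP-1 motif TGANTCA, for the GC box GGGCGG and for the cell cycle homology region TTTGAA. An E2F match lay in 1 of the 9 windows, that of LMNA, where it overlaps a GC box on the other strand, against 3.31% of 35116 windows of all genes. A GC box lay in 7 of the 9 windows, belonging to LMNA, LMNB1, LMNB2, NES and VIM, against 45.0% of all windows. TTTGAA lay in 2, those of LMNB2 and VIM, against 15.2%, and TGANTCA lay in none, against 7.71%. The upstream 250 bases of 3 of the genes that rose are printed below 5′ to 3′ on the gene's strand with matches in capitals. LMNB2 and KRT8 also rose, and their windows are not printed. The LMNA window printed is the one with the E2F match. Of the LMNB1 windows the one printed holds no match while the other holds GC boxes. A match describes the letters and is not a binding site.
LMNA, chr1:156082323-156082572, plus strand: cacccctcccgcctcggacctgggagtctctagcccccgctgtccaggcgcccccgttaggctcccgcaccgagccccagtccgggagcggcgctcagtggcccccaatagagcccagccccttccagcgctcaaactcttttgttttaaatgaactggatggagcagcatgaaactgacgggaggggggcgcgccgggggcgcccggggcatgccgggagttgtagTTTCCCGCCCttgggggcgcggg
LMNB1, chr5:126776373-126776622, plus strand: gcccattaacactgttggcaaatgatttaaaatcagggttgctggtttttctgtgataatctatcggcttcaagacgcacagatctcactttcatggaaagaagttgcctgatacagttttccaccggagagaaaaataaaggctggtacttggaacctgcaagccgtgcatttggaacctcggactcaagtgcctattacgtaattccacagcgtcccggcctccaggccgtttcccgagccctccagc
VIM, chr10:17227991-17228240, plus strand: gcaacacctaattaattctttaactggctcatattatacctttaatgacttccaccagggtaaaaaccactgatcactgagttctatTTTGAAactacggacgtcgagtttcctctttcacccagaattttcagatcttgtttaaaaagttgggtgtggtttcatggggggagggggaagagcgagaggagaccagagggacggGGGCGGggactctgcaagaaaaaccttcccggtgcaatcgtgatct

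The libraries held 34425162 to 40538274 counts. PGK1, which checks the labels, had 18621 to 19801 counts in the WT libraries and 437633 to 533638 in the PGK1_OE libraries, with a log2 fold change of 4.60 (SE 0.04, edgeR adjusted p = 9.65e-14). Levels below are normalised CPM (read counts scaled to library size with TMM factors) unless FPKM, the authors' length-normalised unit, is named. Fold changes are PGK1_OE against WT. A gene is said to rise or fall when its Benjamini-Hochberg adjusted p in edgeR's quasi-likelihood test over 14322 entries is under 0.05. Much of the transcriptome passed that test: 71.2% of entries in either direction, 35.4% upward and 35.8% downward. In whole-culture RNA, more cells of a kind and more mRNA per cell cannot be told apart.

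Of the 9 genes 6 rose and KRT7 fell, while NES and KRT19 were too low to be tested. The 6 risers were VIM, KRT8, KRT18, LMNA, LMNB1 and LMNB2, so all 7 that passed the low-count filter were called, against the 71.2% of all entries. In all 7 the 3 PGK1_OE libraries lay entirely above or entirely below the 3 WT libraries, which held for 76.4% of entries tested. Of the 7, 4 rose at least 2-fold (KRT8, LMNA, LMNB1 and LMNB2), where 12.0% of entries did. That count shifts near the cutoff: KRT8 was just under 2-fold without WT replicate 2 (log2 fold change 0.99). KRT18 was just over it without WT replicate 3 (1.01). The median log2 fold change of the 7 was 1.05, against -0.02 over all entries tested. The 9 genes were chosen with earlier results of these data known, so these shares are a description and not a test. The plot of levels by library shows these gaps.

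**Figure D1:**
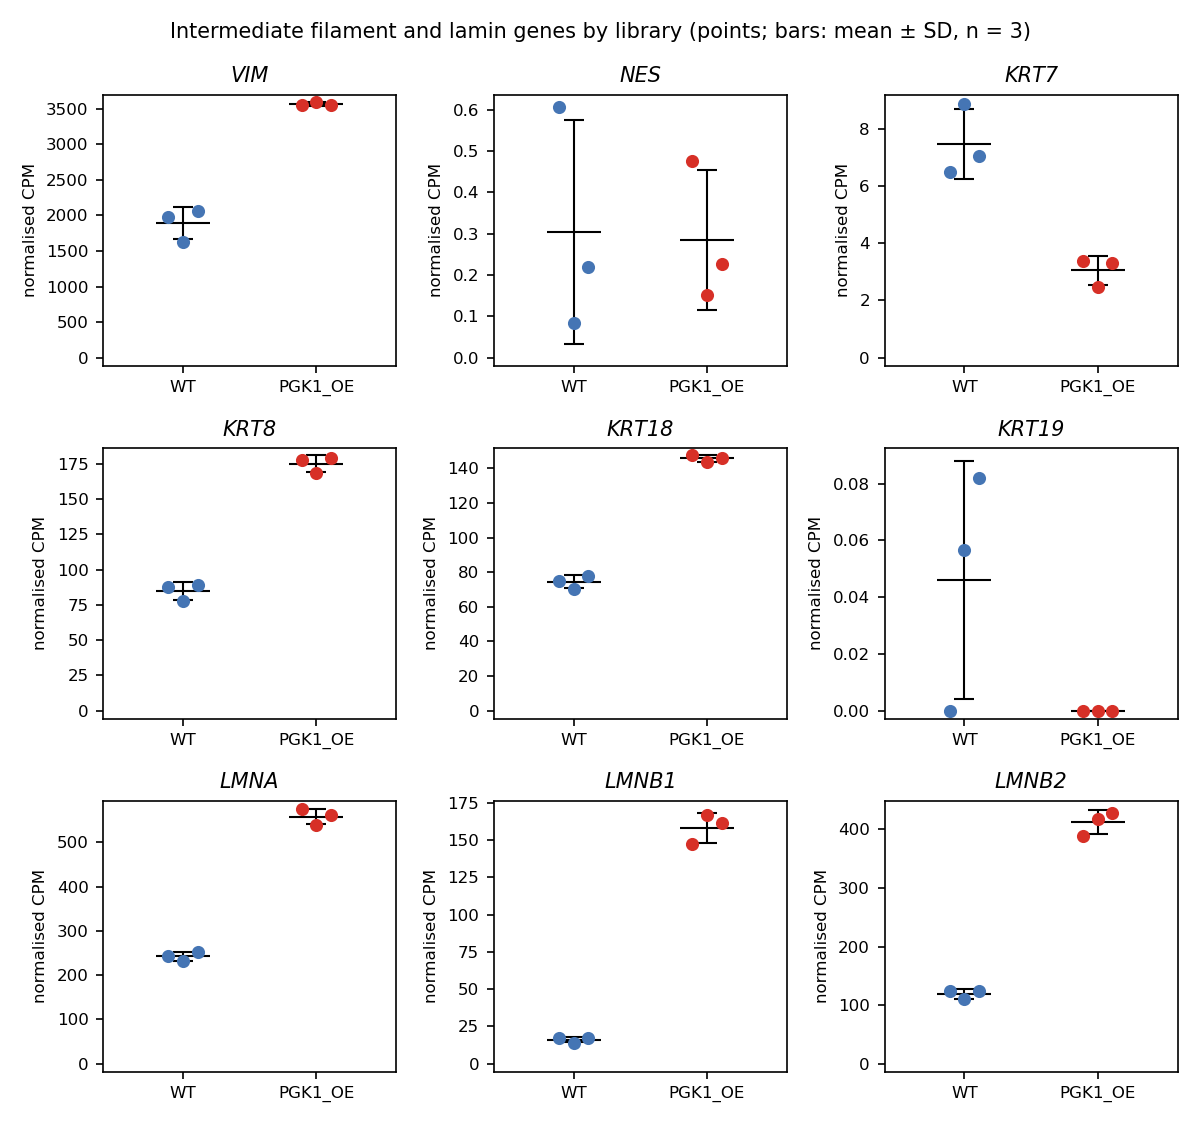
Normalised CPM (vertical axes, each starting near 0 with its own scale) of the 9 genes in the 3 WT and 3 PGK1_OE libraries, with points for libraries and bars for the mean ± SD. The groups are apart for VIM, KRT7, KRT8, KRT18 and the 3 lamins, KRT7 being the gene with the lower PGK1_OE values, and NES and KRT19 stay below 1 CPM.

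LMNB1 (ENSG00000113368, chromosome 5, 126776623 to 126837020, plus strand of GRCh38) had the largest fold change of the 7 tested genes. Its level was 17.1, 14.1 and 17.1 CPM in WT replicates 1, 2 and 3 and 147, 166 and 162 CPM in PGK1_OE replicates 1, 2 and 3. The lowest PGK1_OE library was thus far above the highest WT library. The means were 16.1 ± 1.76 and 158 ± 10.1 CPM (SD, n = 3), a 9.84-fold rise with a log2 fold change of 3.30 (SE 0.08, edgeR adjusted p = 4.16e-10). It was the 75th largest rise among the 14322 entries tested. Lamin B1 is the B-type lamin whose loss is widely used as a marker of senescence. In FPKM it went from 5.25 ± 0.502 to 50.2 ± 3.18.

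LMNB2 (ENSG00000176619, chromosome 19, 2427638 to 2456996, minus strand), the other B-type lamin gene, stood at 125, 110 and 124 CPM in WT, against 389, 418 and 429 CPM in PGK1_OE, so the groups were far apart. The means of 119.5 ± 8.43 and 412 ± 20.3 CPM give a 3.45-fold rise (log2 fold change 1.79, SE 0.06, edgeR adjusted p = 5.21e-10). LMNB2 overlaps the annotated gene TIMM13 on the same strand, so its value may include reads of that gene. LMNA (ENSG00000160789, chromosome 1, 156082573 to 156140089, plus strand), the gene of the A-type lamins, had 244, 231 and 252 CPM in WT and 575, 539 and 562 CPM in PGK1_OE. Its means of 242 ± 10.4 and 559 ± 17.8 CPM give a 2.30-fold rise (log2 fold change 1.20, SE 0.04, edgeR adjusted p = 4.55e-10), and its groups did not overlap either.

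The B-type genes rose by more than LMNA, and the groups did not overlap in the LMNB1 share of the lamin mRNA pool. LMNB1 held 4.90%, 4.54% and 4.63% of the summed lamin FPKM across WT replicates, against 14.6%, 16.5% and 15.5% across PGK1_OE replicates. The share of LMNA went from 73.5% ± 0.766 to 59.3% ± 1.91, and that of LMNB2 from 21.8% ± 0.645 to 25.2% ± 0.985 (SD, n = 3). The summed lamin FPKM itself was 112 ± 8.29 in WT and 323 ± 4.13 in PGK1_OE. The log2 ratio of LMNB1 to LMNA was -3.97 ± 0.07 in WT and -1.93 ± 0.14 in PGK1_OE, a difference of 2.04. That of LMNB1 to LMNB2 was -2.22 ± 0.05 and -0.70 ± 0.05, a difference of 1.52. For both ratios the groups did not overlap, and the exact permutation test, two-sided, gave p = 0.1 (adjusted p = 0.133 over 4 ratios), the smallest that 3 against 3 libraries allow. These ratios within a library do not depend on library scaling.

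**Figure D2:**
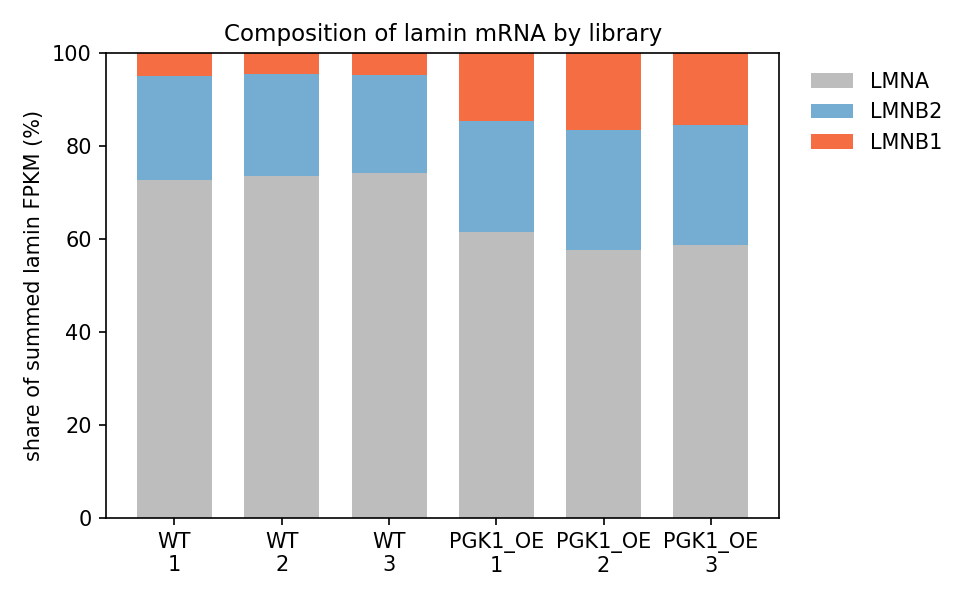
Share of the summed lamin FPKM (vertical axis, %) taken by LMNA, LMNB2 and LMNB1 in each of the 6 libraries. The LMNB1 part lies between 4.54% and 4.90% in the WT libraries and between 14.6% and 16.5% in the PGK1_OE libraries.

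VIM (ENSG00000026025, chromosome 10, 17228259 to 17237593, plus strand) was the most abundant of the 9 genes in every library. It stood at 1976, 1632 and 2060 CPM in WT and at 3557, 3597 and 3553 CPM in PGK1_OE. WT replicate 2 was low for its group, while the PGK1_OE libraries lay close together. The means of 1890 ± 227 and 3569 ± 24.3 CPM give a 1.89-fold rise (log2 fold change 0.92, SE 0.09, edgeR adjusted p = 9.07e-05). By mean FPKM, VIM ranked 40th of all 21619 entries in WT and 11th in PGK1_OE. Antisense genes, among them VIM-AS1, overlap it, and whether counting used strand is not given in the sources used here. WT replicate 2 was the lowest WT library in 6 of the 7 tested genes and the highest for the other, KRT7. It also had the fewest counts of all 6 libraries. Without it the log2 fold change of VIM was 0.83 (edgeR adjusted p = 1.18e-09).

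The keratin pair KRT8 and KRT18 rose together. The genes lie side by side on chromosome 12, KRT8 (ENSG00000170421) at 52897187 to 52949954 on the minus strand and KRT18 (ENSG00000111057) at 52948871 to 52952901 on the plus strand, with 1084 annotated bases in common. KRT8 stood at 87.5, 77.7 and 89.3 CPM in WT and 178, 168 and 179 CPM in PGK1_OE, a 2.06-fold rise (log2 fold change 1.05, SE 0.055, edgeR adjusted p = 1.12e-08). KRT18 stood at 75.0, 70.5 and 77.8 CPM in WT and 148, 144 and 146 CPM in PGK1_OE, a 1.96-fold rise (log2 fold change 0.97, SE 0.05, edgeR adjusted p = 4.56e-09). For both genes every PGK1_OE library lay above every WT library. Their ratio in FPKM, KRT8 to KRT18, was 0.900, 0.796 and 0.864 in WT and 0.957, 0.902 and 0.932 in PGK1_OE. The log2 ratio differed by 0.13, with the groups apart by a small margin (exact permutation p = 0.1, two-sided, adjusted p = 0.133). Both values carry a doubt over reads. The genes overlap on opposite strands, and GENCODE 29 lists 50 genes named as copies of KRT8 and 68 as copies of KRT18. These were counted by name only, and none of the names is a symbol in the count table.

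KRT7 (ENSG00000135480, chromosome 12, 52232520 to 52252186, plus strand), a type II chain of simple and ductal epithelia, went the other way. It stood at 6.49, 8.86 and 7.05 CPM in WT and 3.37, 2.47 and 3.29 CPM in PGK1_OE. All PGK1_OE libraries were below all WT libraries, and the means of 7.47 ± 1.24 and 3.05 ± 0.500 CPM put KRT7 2.45-fold lower (log2 -1.29 ± 0.19 SE, edgeR adjusted p = 6.36e-05). It overlaps KRT86 on the same strand and KRT7-AS on the opposite one. KRT7 was a minor keratin, since its share of the summed FPKM of the 6 cytoplasmic genes was 0.426% ± 0.124 in WT and 0.0897% ± 0.0150 in PGK1_OE. VIM took 90.7% ± 0.519 and 90.4% ± 0.338 of that sum, which was 1040 ± 111 FPKM in WT and 1907 ± 16.4 FPKM in PGK1_OE and was not tested.

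NES (ENSG00000132688, chromosome 1, 156668763 to 156677397, minus strand) and KRT19 (ENSG00000171345, chromosome 17, 41523617 to 41528308, minus strand) were at or near the limit of detection. NES had 23, 3 and 8 counts in WT and 19, 6 and 8 counts in PGK1_OE. The groups overlapped, and without the low-count filter the fitted difference was -0.09 on the log2 scale with an SE of 0.80 (edgeR adjusted p = 0.937). KRT19 had 0, 2 and 3 counts in WT and 0 in every PGK1_OE library. The exact 95% interval of those 0 counts reaches 0.0910, 0.0913 and 0.103 CPM of the library totals in PGK1_OE replicates 1, 2 and 3. A difference in KRT19 was therefore not detectable at this depth. These limits cover counting error only. The planned ratio of KRT19 to KRT18 was not computed, since KRT19 is listed at 0 in 4 libraries, and the log2 ratio of NES to VIM differed by -0.74 with overlapping groups (exact permutation p = 0.6, two-sided, adjusted p = 0.6).

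Ordered by mean FPKM, WT cells had VIM (943), LMNA (82.2), KRT18 (49.6), KRT8 (42.4), LMNB2 (24.4), LMNB1 (5.25) and KRT7 (4.34). PGK1_OE cells kept that order, with VIM at 1723, LMNA at 192, KRT18 at 94.3, KRT8 at 87.8, LMNB2 at 81.4, LMNB1 at 50.2 and KRT7 at 1.71. Neighbours that overlapped between libraries were LMNB1 and KRT7 in WT, and KRT8 and LMNB2 in PGK1_OE. NES and KRT19 were last in both, at 0.0501 and 0.0262 FPKM in WT, and NES at 0.0457 FPKM with KRT19 listed at 0 in PGK1_OE.

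The rest of the intermediate filament family mostly stayed low, and its keratins that passed the test fell. Of 63 other family genes 27 had no counts in any library and 17 could be tested. Of these, 2 rose, 5 fell and 10 did not pass (median log2 fold change -0.35). The shares over all entries tested were 35.4% upward and 35.8% downward. SYNM, encoding synemin, a partner of vimentin and desmin, rose from 3.23 ± 0.856 to 10.5 ± 0.416 CPM (1.70, SE 0.18, edgeR adjusted p = 4.85e-06), and IFFO2 rose from 22.1 ± 1.04 to 37.6 ± 2.35 CPM (0.77). The 5 falls were KRT34, a hair keratin (14.0 ± 0.905 to 2.39 ± 0.360 CPM, -2.55, SE 0.15), KRT80 (62.8 ± 9.28 to 32.2 ± 1.55 CPM, -0.97), KRT10, a keratin of differentiated epidermis (49.8 ± 2.47 to 28.3 ± 1.85 CPM, -0.81), KRT15 (-0.51) and KRT222 (-1.87). The KRT222 call rests on 107 counts in WT and 30 in PGK1_OE, and it was lost without WT replicate 3 (log2 fold change -1.35, edgeR adjusted p = 0.0823).

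KRT81, a hair keratin, exceeded KRT18 in mean FPKM in WT, at 117 ± 27.6. It had 7895, 10608 and 7490 counts in WT and 6271, 6954 and 6443 in PGK1_OE, with levels of 238 ± 54.1 and 172 ± 13.4 CPM. It did not pass (-0.47, SE 0.19, edgeR adjusted p = 0.0838), and WT replicate 2 was the highest library: without it the log2 fold change was -0.26 and the adjusted p 0.00492. With all libraries KRT81 passed in DESeq2 (adjusted p = 0.0314) and in the 3 limma fits on FPKM (0.0306 to 0.0341). Reads of KRT81, KRT83, KRT85 and KRT86, close relatives in sequence, may be shared, and KRT81 overlaps KRT86. The others that did not pass were KRT83 (-0.83), KRT85 (-1.37), KRT86 (-0.25), KRT79 (-0.35), NEFL (1.08), BFSP1 (0.22), PRPH (-0.26), GFAP (-0.16) and IFFO1 (0.01). KRT85 had 12, 4 and 153 counts in the PGK1_OE libraries, so replicate 3 sets its value: without it the log2 fold change was -4.32 (edgeR adjusted p = 0.00139). KRT83 passed without the same library (-1.66, adjusted p = 0.0244). NEFL passed without WT replicate 2 (1.41, adjusted p = 0.0493) and without PGK1_OE replicate 2 (1.37, adjusted p = 0.0324). SYNM, IFFO2, KRT10, KRT80, KRT15 and KRT222 overlap other annotated genes.

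**Figure D3:**
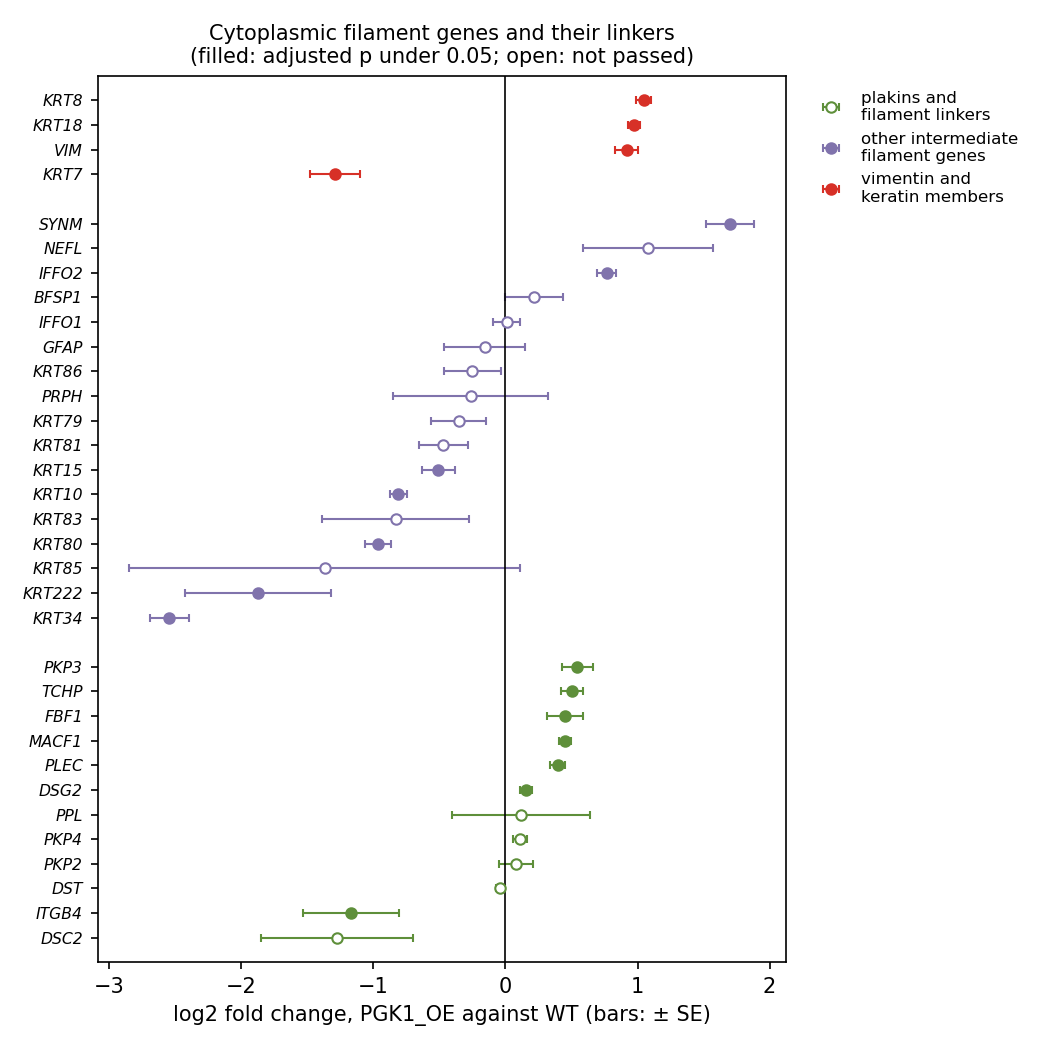
Log2 fold change of PGK1_OE against WT (horizontal axis, bars ± SE) for the tested vimentin and keratin genes, other intermediate filament genes and filament linkers, with filled points for an adjusted p under 0.05. KRT8, KRT18 and VIM lie near 1, whereas the keratins that fell, KRT34, KRT222, KRT7, KRT80, KRT10 and KRT15, lie below 0. ITGB4 and several genes that did not pass, KRT85 and DSC2 among them, also lie below 0.

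Plakins and desmosomal proteins tie intermediate filaments to actin, microtubules and junctions. Of 17 such genes 12 could be tested, of which 6 rose, 1 fell and 5 did not pass (median log2 fold change 0.14). Among all entries tested 35.4% rose and 35.8% fell. PLEC, the plectin gene, rose from 552 ± 48.8 to 727 ± 9.72 CPM (0.40, SE 0.06, edgeR adjusted p = 1.02e-04), and MACF1, a cross-linker of microtubules and actin, from 440 ± 24.9 to 602 ± 14.5 CPM (0.45, SE 0.04). TCHP, a keratin-binding protein gene (0.50), and PKP3, a plakophilin of desmosomes (0.54), rose as well. The fall was in ITGB4, the hemidesmosomal integrin chain, named after its value was seen (1.52 ± 0.524 to 0.675 ± 0.120 CPM, -1.17). ITGB4 passed at an edgeR adjusted p of 0.0130, but leaving out WT replicate 2 gave 0.0617 and leaving out WT replicate 3 gave 0.0569. The desmosomal plakin DSP was not tested, with 50 counts over the WT and 16 over the PGK1_OE libraries.

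Genes for enzymes that finish the lamin C terminus, listed together with NARF, changed unequally. Farnesyltransferase adds the lipid, RCE1 or ZMPSTE24 clips the last residues, ICMT methylates the cysteine, and ZMPSTE24 then cleaves prelamin A, while NARF binds prelamin A. All 6 genes of this list were tested, of which 3 rose, 2 fell and 1 did not pass (median log2 fold change 1.00). Among all entries tested 35.4% rose and 35.8% fell. ICMT rose from 48.3 ± 3.65 to 211 ± 8.20 CPM (2.13, SE 0.06, edgeR adjusted p = 7.56e-11), NARF from 18.0 ± 1.66 to 67.5 ± 0.814 CPM (1.91, SE 0.07) and the farnesyltransferase subunit gene FNTB from 9.46 ± 0.808 to 34.6 ± 3.22 CPM (1.87, SE 0.10). ZMPSTE24 fell from 112 ± 2.11 to 98.2 ± 3.08 CPM (-0.19, SE 0.04, edgeR adjusted p = 0.00147). FNTA, the other farnesyltransferase subunit gene, named after its value was seen, fell by 0.11 on the log2 scale (edgeR adjusted p = 0.0375). FNTA no longer passed when WT replicate 1, 2 or 3 was left out (adjusted p = 0.141, 0.0628 and 0.0695), nor when PGK1_OE replicate 2 or 3 was (0.102 and 0.109). With all 6 libraries it did not pass in DESeq2 (adjusted p = 0.0573) or without the low-count filter (0.0559). FNTB overlaps the readthrough gene CHURC1-FNTB on the same strand and MAX on the opposite one, and ICMT overlaps RNF207, so these values are uncertain.

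Most tested partners of the lamina rose. Of 26 genes for lamin-binding membrane proteins, chromatin tethers and the LINC complex, which couples the nucleus to the cytoskeleton, 24 were tested, 17 rose, 3 fell and 4 did not pass (median log2 fold change 0.50). TMPO, which encodes the lamina-associated polypeptide LAP2, rose from 58.4 ± 2.60 to 310 ± 23.9 CPM (2.41, SE 0.06, edgeR adjusted p = 9.77e-11), although TMPO-AS1 overlaps it. NEMP1, an inner nuclear membrane protein gene, rose from 57.4 ± 1.58 to 143 ± 3.06 CPM (1.32, SE 0.04), and ANKLE2, which acts in nuclear envelope reassembly, by 0.91 on the log2 scale. The falls were SYNE1, a nesprin gene (110 ± 2.61 to 50.0 ± 3.48 CPM, -1.14, SE 0.05), and, named after their values were seen, LEMD2 (-0.54) and TMEM43 (-0.28). SYNE1 overlaps ESR1 on the opposite strand. The lists of linkers, processing enzymes and partners were chosen with earlier results of these data known. Of all entries tested 35.4% rose and 35.8% fell.

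**Figure D4:**
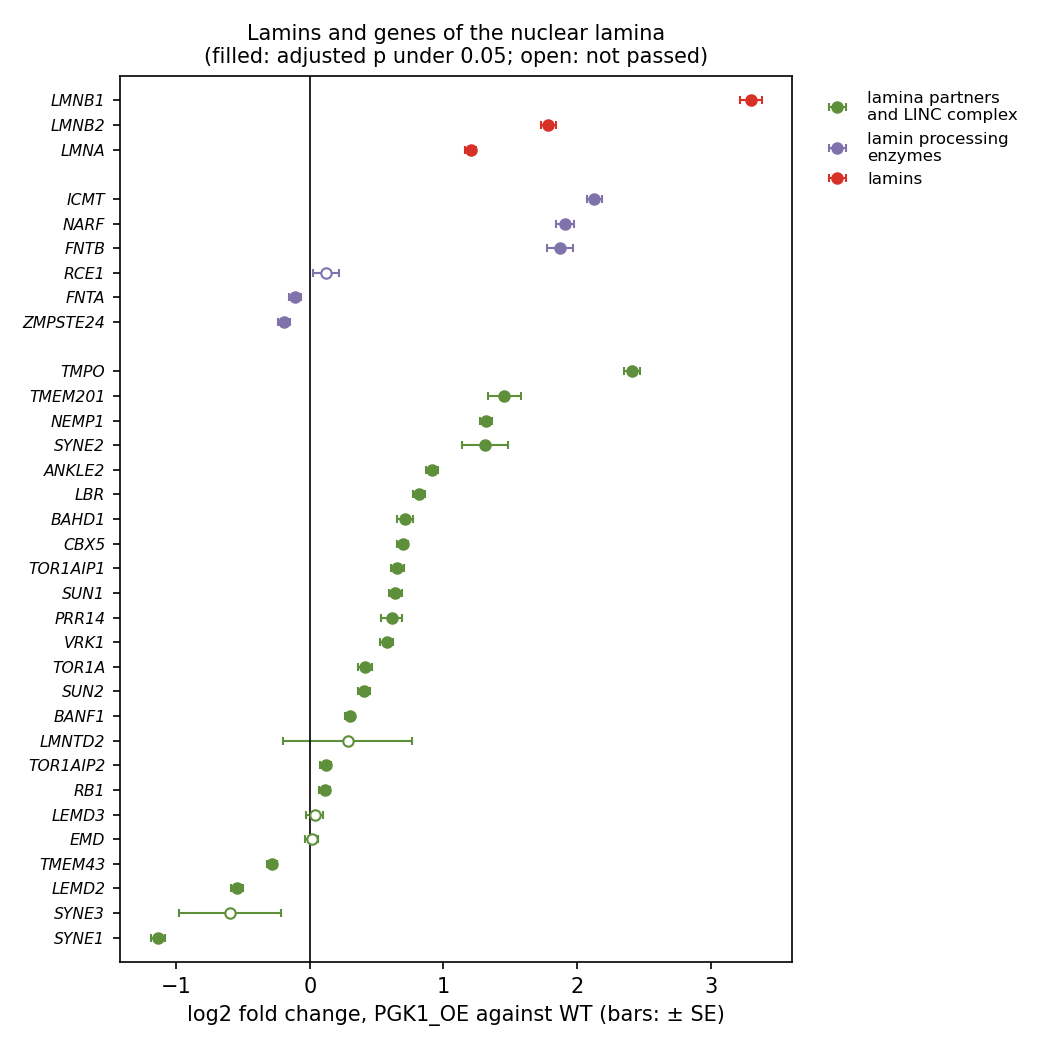
Log2 fold change of PGK1_OE against WT (horizontal axis, bars ± SE) for the 3 lamins, 6 genes of the lamin processing list and 24 tested lamina partners. Filled points mark an adjusted p under 0.05, and the processing list includes NARF, which binds prelamin A. LMNB1 lies at 3.30, followed by TMPO at 2.41 and ICMT at 2.13, and SYNE1 is lowest at -1.14.

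Lineage markers were set beside the keratin and vimentin results. Of 18 mesenchymal markers 15 were tested, with 7 rising and 5 falling, where 35.4% and 35.8% of all entries tested did. The list's summed level was 1970 to 2084 CPM in the WT libraries and 2757 to 2921 CPM in the PGK1_OE libraries. In FPKM it was 482 to 494 and 585 to 627. CD44, named after its value was seen, had the most counts of the list. It rose in the main fit (0.42, edgeR adjusted p = 4.36e-06), but on log2(FPKM + 1) it did not pass (0.07, limma adjusted p = 0.321). SPARC (1.09), COL6A1 (0.71) and FN1 (0.55) rose, and CDH2, N-cadherin, fell (-0.54). The other falls, named after their values were seen, were COL5A1 (-0.27), COL6A2 (-0.22), NT5E and THY1 (-3.06). THY1 had 51 counts over the WT and 6 over the PGK1_OE libraries. COL1A2 and COL3A1, collagens of fibroblasts, had 0 counts in WT and 12 and 7 counts in PGK1_OE. The line was thus positive for part of the mesenchymal list only.

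Of 19 epithelial markers 7 had no counts in any library, EPCAM, GRHL2 and RAB25 among them. The 8 tested held 1 rise, MUC1 (1.30, SE 0.15), 5 falls and 2 that did not pass. Over all entries tested 35.4% rose and 35.8% fell. The list's summed level was 14.0 to 16.2 CPM in the WT libraries and 12.1 to 13.5 CPM in the PGK1_OE libraries. In FPKM the order was the opposite, 4.08 to 5.35 in WT and 5.68 to 6.22 in PGK1_OE, so the list's direction depends on the unit. MUC1 alone had 1.55 to 2.19 FPKM in the WT libraries and 4.06 to 4.82 in the PGK1_OE libraries, most of the PGK1_OE sum. The direction of the FPKM sum thus mainly describes that gene. CDH1, E-cadherin, had 17, 28 and 16 counts in WT and 0 in each PGK1_OE library. ESRP1, an epithelial splicing factor gene, had 257 counts over the WT and 6 over the PGK1_OE libraries, and ST14 fell by 1.86 on the log2 scale. Of 18 markers of blood, endothelial, muscle and neural cells 7 had no counts in any library and 5 were tested. PECAM1 rose (1.72), while MITF fell (-1.74), as did RBFOX3 (194 counts over the WT and 10 over the PGK1_OE libraries), and VWF did not pass (-0.71, edgeR adjusted p = 0.104). The list's summed level overlapped between groups, at 264 to 289 CPM in WT and 243 to 273 CPM in PGK1_OE. CD68, named after its value was seen, made up most of that sum and did not pass. It had 8135 to 8439 counts in the WT libraries and 8322 to 9919 in the PGK1_OE libraries. The overlap thus mainly describes that gene. The part of other cell types in the keratin and vimentin results was not tested.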

How the data were processed

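The 9 members and the other gene lists were chosen with earlier results of these data known. Groups and replicate numbers come from the sample titles, and columns were matched through the sample descriptions. The submitters' processing notes name fastp, HISAT and the build hg38. Which counter, strand setting and annotation were used is not given in the sources used here. Raw whole-number read counts per gene were deposited in one file. FPKM values, which the authors scaled to gene length and library size, were deposited in another. No column of another sample was present.

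The main test used edgeR 4.0.16 under R 4.3.3: filterByExpr by group (14322 entries kept), TMM, and the robust quasi-likelihood F test with group as the only term, two-sided, adjusted by Benjamini-Hochberg over all entries. Each SE was obtained from the log2 fold change and its F statistic, as size over root F. Ratios between members used FPKM and an exact permutation test. Named genes are the 9 members, PGK1, every tested gene of the family list and the 4 smallest adjusted p of each other list. Processed copies, antisense and divergent transcripts of members were to be named too. No symbol in the count table had the name of a processed copy of a member. Antisense and divergent transcripts were not searched for in the count table. Genes outside the rule are marked or are given as counts.

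No libraries of a group were near-duplicates: their counts gave a chi-square of 7.67 to 14.6 times its degrees of freedom. The fit was also run on simulated counts in which few genes changed and all genes had the same dispersion. In these data 71.2% of entries passed, so that run cannot give the rate of false calls here. Coordinates and overlaps are from GENCODE 29 (GRCh38) and promoters from RefSeq. Alternatives were RLE factors, library totals, PGK1 left out of scaling, 2 other low-count filters, DESeq2 1.42.0, limma-voom with limma 3.58.1, limma on log2(FPKM + 1) and log2(FPKM + 0.1) for entries with FPKM of at least 1 in 3 libraries, log2(FPKM + 1) without that filter, the replicate block, leaving out each library, and an adjusted p under 0.01. Leaving out MSTRG entries, which are assembled loci, was added after seeing the data.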

Additional observations from a re-analysis of the deposited data

How the results depend on the processing

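The 7 tested members kept their direction and stayed past the threshold in all 19 alternatives. Over these the log2 fold change ran from 3.04 to 3.36 for LMNB1, 1.70 to 1.83 for LMNB2, 1.16 to 1.24 for LMNA, 0.83 to 0.99 for VIM, 0.99 to 1.09 for KRT8, 0.91 to 1.01 for KRT18 and -1.38 to -0.98 for KRT7. The count of members was 6 upward and 1 downward in each. Titles give both groups the same replicate numbers, but same-numbered libraries did not deviate together (r between -0.02 and 0.03), so the numbers are not taken as pairs. With the replicate block LMNB1 was 3.30 (edgeR adjusted p = 7.61e-07), and 9943 entries were called in place of 10195. Outside the members the lists held 37 rises (32 to 39 over the alternatives) and 23 falls, and falls came to 15 on log2(FPKM + 1) and on log2(FPKM + 0.1), which keep fewer low genes. Library totals shifted the median of all entries by -0.05. Of genes that did not pass, IFFO1 changed sign with library totals (-0.037), without WT replicate 2 (-0.057), without PGK1_OE replicate 1, and on log2(FPKM + 1) with or without the filter (-0.042) and log2(FPKM + 0.1) (-0.049), the fits that leave out a library spanning -0.057 to 0.081. GFAP did so on log2(FPKM + 1) without the filter (0.027), and PRPH without WT replicate 2 (0.44) or PGK1_OE replicate 3 (0.070), its fits without a library spanning -0.68 to 0.44. On log2(FPKM + 1) without the filter the calls of ZMPSTE24 (adjusted p = 0.0529) and KRT222 (0.0554) were lost. SYNE1 stayed called with values of -1.19 to -0.43. The 5 epithelial falls came to 3 with 1 CPM in 3 libraries and to 0 in the filtered FPKM fits. All 5 of these genes were under 1 FPKM in every library, so the filtered FPKM fits did not test them. The 2 other filament genes that rose came to 4 without WT replicate 2. The ratio differences LMNB1 to LMNA (1.97 to 2.11), LMNB1 to LMNB2 (1.49 to 1.54) and KRT8 to KRT18 (0.08 to 0.17) kept their sign in 7 alternatives each. The difference of NES to VIM ran from -1.38 to -0.04, limited by 3 to 23 NES counts per library. Apart from genes that a filter left out, the causes of these shifts were not tested.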
